A study of Arabidopsis thaliana with 6 samples.

Results

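The genes described here are chloroplast-encoded genes for ribosomal proteins and for RNA polymerase subunits. They were chosen by name: a probe set counted when the platform annotation paired it with exactly 1 gene whose symbol begins, in lower case, with rps or rpl and a number, or is rpoA, rpoB, rpoC1 or rpoC2. Of 22746 gene probe sets, 19 met this, 8 for small subunit proteins, 7 for large subunit proteins and 4 for polymerase subunits. By RefSeq (assembly TAIR10.1) all 19 lie on the plastid chromosome. No mitochondrial ribosomal gene was among them, so the set covers the chloroplast and not both organelles. A further 11 probe sets carry a symbol of this form but pair with several genes, and they are not described.

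The levels come from 6 ATH1 arrays hybridised with RNA of whole seedlings of Arabidopsis thaliana grown in the light, 3 arrays for Col-0 wild type and 3 for plants titled VFB mutant and described as a triple mutant. VFB proteins are F-box proteins, a kind that marks other proteins for breakdown, and neither the mutated VFB genes nor their alleles are named in the labels. The design text and the descriptions give 10 days as the age of all samples, but the source names and extract protocols give 5 days for the mutant, and the protocol of mutant replicate 3 names a No-0 wild type. Genotype therefore cannot be told apart from age if the shorter age is right, samples were grouped by title, and results are also given without mutant replicate 3. The labels leave unsaid whether replicates are separate cultures, and p-values then cover only the spread among these 6 samples, which may be technical. No probe set was named here for a VFB gene, so the mutation itself was not checked.

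Chloroplasts keep a small genome of bacterial origin, with their own ribosome and RNA polymerase. Part of the ribosomal proteins and the catalytic core of the bacterial-type polymerase are encoded in that genome. The other ribosomal proteins, the sigma factors and a phage-type polymerase come from the nucleus. The phage-type polymerase transcribes the rpoB gene cluster, and the bacterial-type polymerase built from it transcribes most photosynthesis genes. Plastid genes are mostly transcribed in clusters, and the long transcripts are then cut and trimmed.

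Values are MAS5 intensities on a linear scale, as the authors deposited them. Changes are differences of log2(intensity + 16), mutant minus wild type, with standard errors from limma fitted over the 13647 probe sets whose mean lay above the 40th percentile. A gene passed at an adjusted p below 0.05 (Benjamini-Hochberg over all tested probe sets). All 19 genes were bright enough to be tested, the dimmest at percentile 64.9 of all probe sets. The intensity of a probe set also depends on its probes, so levels of different genes are not compared.

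Of the 19 genes, rps14 rose in the mutant, 18 did not pass and none fell. This is 5.26% of the genes, against 18.6% of all tested probe sets called in either direction, 8.17% called higher and 10.4% called lower. The median change of the 19 genes was 0.02 on the log2 scale, and that of all tested probe sets was -0.05. Changes were above 0 in 10 genes and below 0 in 9, and in 15 of the 19 the difference was smaller than 1.2-fold. For 13 genes the 95% interval of the change lay within 0.5 of 0 on the log2 scale, and for all but rps14 it lay within 1 of 0.

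The gene rps14 encodes a small subunit protein, which in Escherichia coli sits in the head of the subunit. Its intensity was 316.2, 329.3 and 484 in wild type replicates 1 to 3, and 599.2, 1194.6 and 841.3 in mutant replicates 1 to 3. Every mutant array was above every wild type array, and both groups were widely spread, with mutant replicate 2 the highest. The group means were 376.5 ± 93.3 and 878.4 ± 299 (SD, n = 3 each). The log2 change was 1.16 ± 0.222 (SE), a 2.23-fold rise with a 95% interval of 1.60-fold to 3.12-fold (limma, adjusted p = 0.00324). Leaving out any 1 array gave log2 changes between 0.91 and 1.40 and adjusted p between 0.000744 and 0.0188 in limma. Without mutant replicate 3 the log2 change was 1.16 ± 0.262 (limma, adjusted p = 0.0126). The spread of rps14 within groups, an SD of 0.42 on the log2 scale, was at percentile 97.3 of all tested probe sets.

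The other 7 small subunit genes differed by less. The gene rps4, whose protein starts small subunit assembly by binding the ribosomal RNA in Escherichia coli, was at 8040, 7492.9 and 6779.4 in wild type and 8272.3, 9888.1 and 8289.2 in the mutant. The groups did not overlap, but the mutant's lowest array was close to the wild type's highest. Its log2 change of 0.24 ± 0.109 did not pass (limma, adjusted p = 0.146).

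The gene rps15, whose bacterial counterpart binds ribosomal RNA early in assembly, was at 1050.3, 972.8 and 1091.8 in wild type and 828.1, 982.5 and 827.7 in the mutant. Mutant replicates 1 and 3 lay below all wild type arrays, and replicate 2 lay just above wild type replicate 2. The log2 change was -0.24 ± 0.115 (limma, adjusted p = 0.178). The gene rps3, whose protein lines the entry of the messenger RNA in the bacterial ribosome, was at 8848.4, 10400.6 and 12445 in wild type and 11497.1, 11588.3 and 10691.2 in the mutant. All 3 mutant values fell between the wild type extremes, for a log2 change of 0.10 ± 0.121.

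The gene rps18, which tobacco needs for cell survival, was at 3040, 3643 and 4145.6 in wild type and 3910.9, 3943 and 3737.7 in the mutant, also within the wild type range. The gene rps19, for a protein of the small subunit's head, ran from 6906 to 9225.5 in wild type and from 7564.4 to 7960.6 in the mutant, with a log2 change of -0.02 and a 95% interval from -0.26 to 0.23. The mutant arrays lay close together in both genes, and the wild type arrays did not. The gene rps16, for an assembly protein of the bacterial small subunit, was at 529.8 to 707.6 in wild type and 484.7 to 665.1 in the mutant (log2 change -0.13 ± 0.150). The gene rps2, for a protein that joins the bacterial subunit late, was at 2978.3 to 4772.1 and 3034.9 to 3814.7 (log2 change -0.18 ± 0.156). Neither separated the groups.

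Of the 7 large subunit genes, none passed, and the largest changes were those of rpl20 and rpl33. The gene rpl33 is dispensable in tobacco under standard conditions and is needed there for recovery from cold. Its intensity was 13678.1, 14584.2 and 16581.3 in wild type and 18632.4, 20385.5 and 17265.2 in the mutant. Every mutant array was above every wild type array, and the means were 14948 ± 1485 and 18761 ± 1564 (SD, n = 3 each). The log2 change was 0.33 ± 0.107, just outside the threshold (limma, adjusted p = 0.0507). It passed after median centring (limma, adjusted p = 0.0201) and not after quantile normalization (limma, adjusted p = 0.258), where the log2 change was 0.19. Without mutant replicate 3 it was 0.39 and passed (limma, adjusted p = 0.0441).

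The gene rpl20 encodes a protein that acts early in assembly of the large subunit in bacteria. It was at 860.3, 1386.9 and 1288.6 in wild type and 1373.8, 2345.5 and 1431 in the mutant. The groups overlapped by a narrow margin, with wild type replicate 1 low and mutant replicate 2 high. The log2 change was 0.52 ± 0.207 (limma, adjusted p = 0.103), and it was 0.28 without mutant replicate 2.

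The other 5 large subunit genes differed by less than 0.15 on the log2 scale in either direction. The gene rpl16, whose bacterial counterpart sits near the site where transfer RNA is taken up, was at 9164.6 to 11347.1 in wild type and 8598.6 to 12607.8 in the mutant. The gene rpl32, which tobacco cannot do without, was at 4721.6 to 6016.1 and 4630 to 5543.4, a log2 change of 0.02 with a 95% interval from -0.24 to 0.28. The gene rpl36, dispensable in tobacco, was at 10925.4 to 11745.9 and 8832.9 to 12572.4. In these 3 genes the mutant values lay on both sides of the wild type mean.

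The gene rpl22, whose protein lines the exit tunnel of the bacterial ribosome, was at 7523.9 to 10635.9 in wild type and 7503.5 to 8936.6 in the mutant (log2 change -0.13 ± 0.127). The gene rpl14, for a protein at the contact between the subunits, was at 1684.6, 2092.2 and 2370 in wild type and 2329.9, 2325 and 1144.7 in the mutant. Mutant replicate 3 was the lowest array for rpl14 by a wide margin, and the other mutant arrays lay near the top of the wild type range. Its log2 change was -0.14 ± 0.228 with all arrays and 0.20 without mutant replicate 3, so its direction rests on that array.

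Among the polymerase genes none passed, and the largest change was that of rpoB. The gene rpoB encodes the beta subunit, which forms the catalytic centre together with the products of rpoC1 and rpoC2. Its intensity was 269.4, 380.4 and 305.9 in wild type and 398.8, 554.1 and 401.9 in the mutant. Every mutant array was above every wild type array, mutant replicate 1 only slightly. The log2 change was 0.48 ± 0.168, a 1.39-fold difference (limma, adjusted p = 0.0666). It passed under quantile normalization (limma, adjusted p = 0.0447) and median centring (limma, adjusted p = 0.0303). Without mutant replicate 3 the log2 change was 0.55 and did not pass (limma, adjusted p = 0.0713). Without mutant replicate 2 it was 0.33 (limma, adjusted p = 0.252).

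The gene rpoC1 was at 2422.1, 3390 and 3057.2 in wild type and 3514, 3550.7 and 2772.5 in the mutant. Mutant replicates 1 and 2 lay above the wild type range and replicate 3 within it, for a log2 change of 0.15 ± 0.138 (limma, adjusted p = 0.49). The gene rpoC2 was at 967.6, 1242.9 and 1253 in wild type and 1336.8, 1316.4 and 763.2 in the mutant. As with rpl14, mutant replicate 3 was the lowest array. For rpoC2 the other mutant arrays were above the wild type range. The log2 change of rpoC2 was -0.05 ± 0.191 (limma, adjusted p = 0.884), and without mutant replicate 3 it was 0.21.

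The gene rpoA encodes the alpha subunit, on which the polymerase core assembles in bacteria. It was at 12118.1, 8880.4 and 11756.5 in wild type and 9533.4, 9850.7 and 11054.4 in the mutant. All mutant values fell within the wild type range, and the log2 change was -0.09 ± 0.125 (limma, adjusted p = 0.652).

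**Figure D1:**
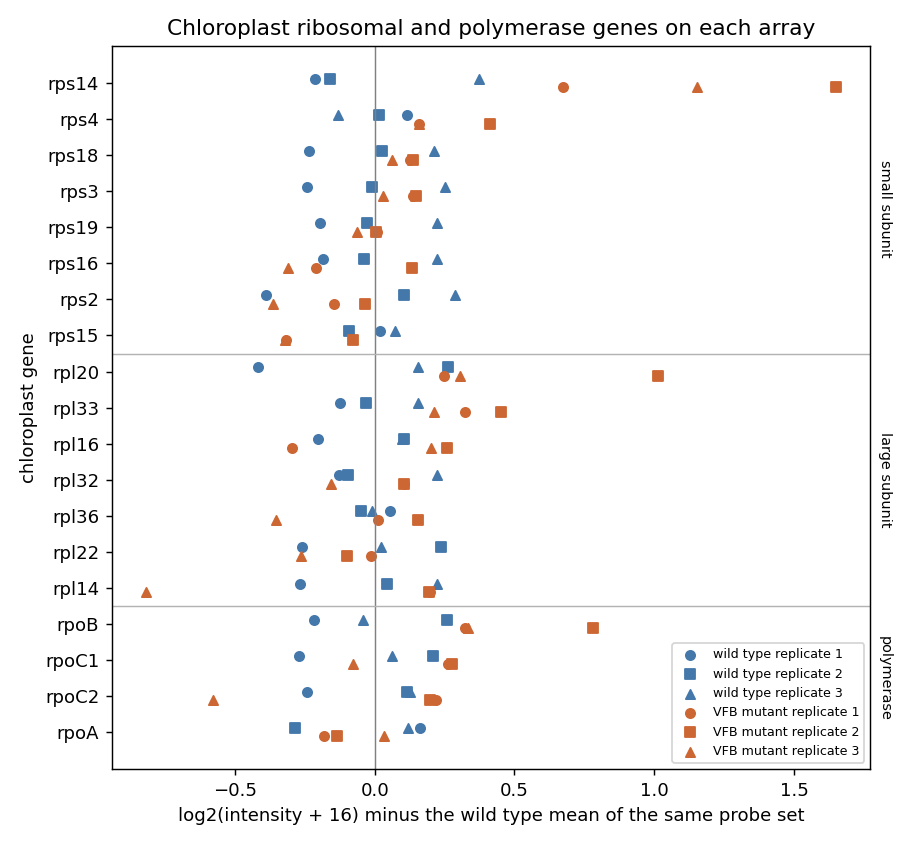
Level of each of the 19 genes on each array, as log2(intensity + 16) minus that probe set's wild type mean. Blue symbols are the 3 wild type arrays and orange symbols the 3 mutant arrays. For rps14, rps4, rpl33 and rpoB all orange symbols lie to the right of all blue ones, and for rpl14 and rpoC2 mutant replicate 3 lies far to the left.

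**Figure D2:**
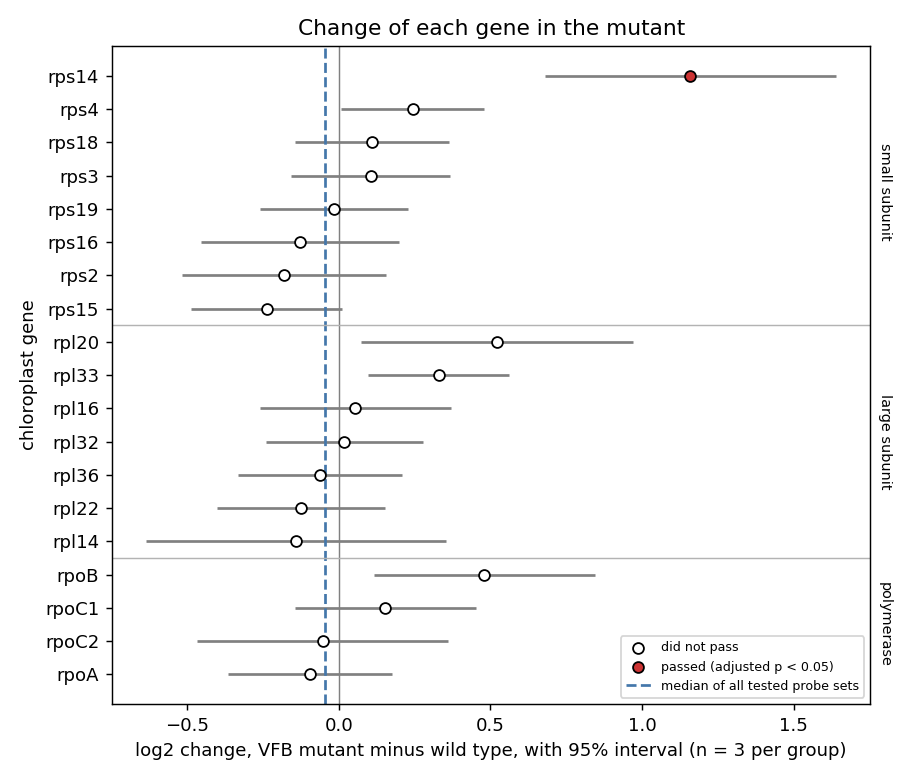
Log2 change of each gene, mutant minus wild type, with its 95% interval from limma (n = 3 per group). The filled point is rps14, the 1 gene that passed. The dashed line at -0.05 is the median of all tested probe sets.

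The 3 classes gave similar medians. The median log2 change was 0.04 for the small subunit, 0.02 for the large subunit and 0.05 for the polymerase genes, with 4 of 8, 4 of 7 and 2 of 4 genes above 0. Changes ran from -0.24 to 1.16 in the small subunit class, from -0.14 to 0.52 in the large subunit class and from -0.09 to 0.48 in the polymerase class. The range within each class was thus wider than the distance between the class medians. In all, 4 genes had groups that did not overlap with the mutant higher (21.1%), against 15% of all tested probe sets, and 0 had groups apart with the mutant lower, against 21.2%. An unadjusted limma p under 0.05 was reached by 5 genes (26.3%), against 31.4% of all tested probe sets. These 5 were rps14, rps4, rpl20, rpl33 and rpoB, and each was higher in the mutant.

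The arrays within each group differed in a way the genes shared. Of the 3 wild type arrays, replicate 1 was the lowest for 15 of the 19 genes. Of the 3 mutant arrays, replicate 2 was the highest for 14 genes and replicate 3 the lowest for 13. Among 49 other tested chloroplast-encoded genes the same arrays held these places in 31, 41 and 32 genes. Over all 13647 tested probe sets wild type replicate 1 was the lowest of its group in 5540, mutant replicate 2 the highest in 4215 and mutant replicate 3 the lowest in 4990. Genes of 1 chloroplast genome share these arrays and their RNA, so these counts are a description.

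Single genes varied somewhat more within groups than most probe sets, with a median SD of 0.20 on the log2 scale for the 19 genes, 0.22 for the other chloroplast-encoded genes and 0.17 for all tested probe sets. It ran from 0.12 for rps15 to 0.45 for rpl14.

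The medians of each class also differed between arrays of 1 group. Set against each gene's wild type mean, the median of the small subunit genes was -0.21, -0.02 and 0.22 on the log2 scale in wild type replicates 1 to 3, and 0.07, 0.14 and -0.02 in mutant replicates 1 to 3. For the large subunit genes these medians were -0.20, 0.04 and 0.15 in wild type and 0.10, 0.19 and -0.15 in the mutant. For the polymerase genes they were -0.23, 0.16 and 0.09 in wild type and 0.24, 0.24 and -0.02 in the mutant. In each class the wild type and mutant arrays overlapped. The other chloroplast-encoded genes had medians of -0.15, 0.02 and 0.10 in wild type and 0.02, 0.28 and -0.16 in the mutant, while all tested probe sets stayed between -0.05 and 0.02. The cause of these differences between arrays was not tested. In whole seedlings, a different share of cells with chloroplasts and a different amount of chloroplast RNA per cell cannot be told apart.

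**Figure D3:**
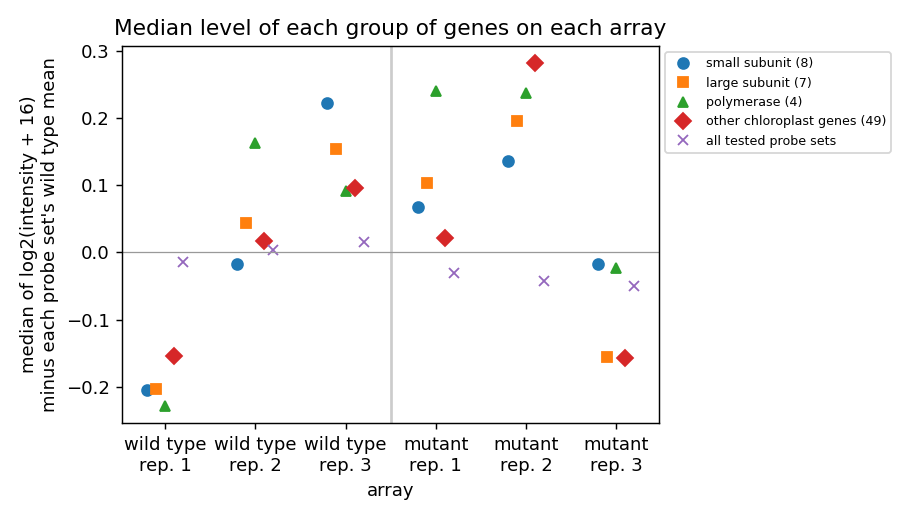
Median of log2(intensity + 16) minus each probe set's wild type mean, on each array, for the small subunit, large subunit and polymerase genes, the other chloroplast-encoded genes and all tested probe sets. All 4 chloroplast groups lie lowest in their group of arrays in wild type replicate 1 and in mutant replicate 3, while the median of all tested probe sets stays between -0.05 and 0.02.

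The number of genes called depended on how the arrays were scaled. Quantile normalization called 2 of the 19 higher, rps14 and rpoB, against 8.53% of all tested probe sets higher and 8.9% lower. Median centring called 3 higher, rps14, rpl33 and rpoB, against 11.4% higher and 7.03% lower. Centring each array on the other chloroplast-encoded genes called 4 higher, rps14, rpl20, rpl33 and rpoB, against 9.76% higher and 3.47% lower. No gene was called lower under these 3 scalings.

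This centring used the median level of the other chloroplast-encoded genes on each array. It added the same amount, 0.16, to the log2 change of every probe set. The median change of those genes was 0.06 with the deposited scaling, so subtracting that change would lower values instead of raising them. Changes on this scale are therefore not changes relative to the typical chloroplast gene. On this scale the log2 change was 1.32 ± 0.199 for rps14 (limma, adjusted p = 5.78e-07) and 0.68 ± 0.187 for rpl20 (limma, adjusted p = 0.00687). The standard errors of both were smaller than with the deposited scaling. The log2 change was 0.64 ± 0.196 for rpoB (limma, adjusted p = 0.0181) and 0.49 ± 0.166 for rpl33 (limma, adjusted p = 0.0364), with standard errors that were larger than before.

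Other choices also moved the count. A robust variance model called 2 genes higher, rps14 and rpl33, against 8.1% of all tested probe sets. An adjusted p threshold of 0.1 called rps14, rpl33 and rpoB, against 10.8%. Without mutant replicate 3, rps14 and rpl33 were called, against 7.09%.

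Genes that are transcribed together did not all differ alike. The gene rps14 closes a cluster with psaA and psaB, which encode the core proteins of photosystem I. The gene psaA fell in the mutant, from 5007.6, 6751.2 and 6424.1 in wild type to 3799.7, 3732 and 2474.3, with no overlap. Its log2 change was -0.87 ± 0.163 (limma, adjusted p = 0.00276), and it passed without any 1 of the arrays. Without mutant replicate 3 it was -0.67 ± 0.133 (limma, adjusted p = 0.0062). The gene psaB, which lies between psaA and rps14, was at 20440.7, 21121.5 and 21062 in wild type and 15758.6, 19003.3 and 18722 in the mutant (log2 change -0.23 ± 0.102, limma, adjusted p = 0.14).

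Within each array, the log2 ratio of rps14 to psaA was -3.92, -4.29 and -3.69 in wild type and -2.63, -1.63 and -1.54 in the mutant. The ratio was higher in every mutant array, 4.09-fold on average. The exact two-sided permutation p was 0.1, the smallest that 3 arrays against 3 allow, and 0.487 after adjustment over the 39 pairs of genes compared within clusters. The ratio of rps14 to psaB was 2.62-fold higher, again in every mutant array (exact permutation p = 0.1, adjusted p = 0.487). These ratios describe the probe sets of this cluster on these arrays. They were compared after the values were seen. With 3 arrays against 3 the smallest possible p lies above the threshold used here, so no pair in any cluster could pass. The permutation tests therefore cannot decide whether a ratio differed, and their p-values are given here and below without a conclusion.

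The cluster rpoB, rpoC1 and rpoC2 showed a smaller difference, and here the first gene had the highest change, whereas rps14 is the last of its cluster. The log2 changes were 0.48 for rpoB, 0.15 for rpoC1 and -0.05 for rpoC2, in the order of transcription. The log2 ratio of rpoC1 to rpoB was 3.09, 3.10 and 3.26 in wild type and 3.09, 2.65 and 2.74 in the mutant. Mutant replicate 1 was barely below the lowest wild type array, and the others were clearly below it (exact permutation p = 0.1, adjusted p = 0.487). The ratio of rpoC2 to rpoB overlapped between the groups (exact permutation p = 0.2).

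The genes rpl33 and rps18 are neighbours, and their log2 ratio was 2.16, 2.00 and 2.00 in wild type and 2.25, 2.37 and 2.20 in the mutant, higher in every mutant array (exact permutation p = 0.1, adjusted p = 0.487). The ratio of rpl20 to clpP, a gene for a protease subunit in its cluster, was 1.51-fold higher and also apart, by a narrow margin (exact permutation p = 0.1, adjusted p = 0.487). The gene clpP itself had a log2 change of -0.07 ± 0.126.

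In the long ribosomal cluster the 7 measured genes, rps19, rpl22, rps3, rpl16, rpl14, rpl36 and rpoA, had log2 changes between -0.14 and 0.10, and none passed. Among pairs of genes in this cluster, the ratio of rps3 to rps19 was the 1 ratio whose groups did not overlap, and it was 1.09-fold higher in the mutant (exact permutation p = 0.1, adjusted p = 0.487). Over all clusters, groups were apart for 8 of 39 pairs, and many pairs share a gene. Of single tested probe sets, 36.1% had groups apart in either direction. That share is for levels and not for ratios of pairs, so it is not a matching background.

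The genes rps15 and rps2 lie in clusters with photosynthesis genes. Next to rps15, ndhH, a subunit of the chloroplast NDH complex, fell from 777.1, 822.5 and 706.3 to 587.9, 559.8 and 447.5, a log2 change of -0.53 ± 0.132 (limma, adjusted p = 0.0156). It did not pass without wild type replicate 2 (limma, adjusted p = 0.0717). Centring on the level of the other chloroplast-encoded genes raised every change by 0.16, and ndhH then did not pass (-0.36, limma, adjusted p = 0.225). That value is not a change relative to the typical chloroplast gene. The ratio of ndhH to rps15 overlapped between the groups. Further along that cluster ndhG (0.55 ± 0.179, limma adjusted p = 0.0509) and ndhI (0.29 ± 0.108, limma adjusted p = 0.0806) had log2 changes of the other sign and did not pass. Their ratios to rps15 were higher in every mutant array, 1.72-fold for ndhG and 1.45-fold for ndhI (exact permutation p = 0.1, adjusted p = 0.487 for each). In the cluster of rps2, the ATP synthase genes atpI, atpH, atpF and atpA had log2 changes from -0.48 to 0.06, none passed, and all 4 ratios to rps2 overlapped between the groups.

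**Figure D4:**
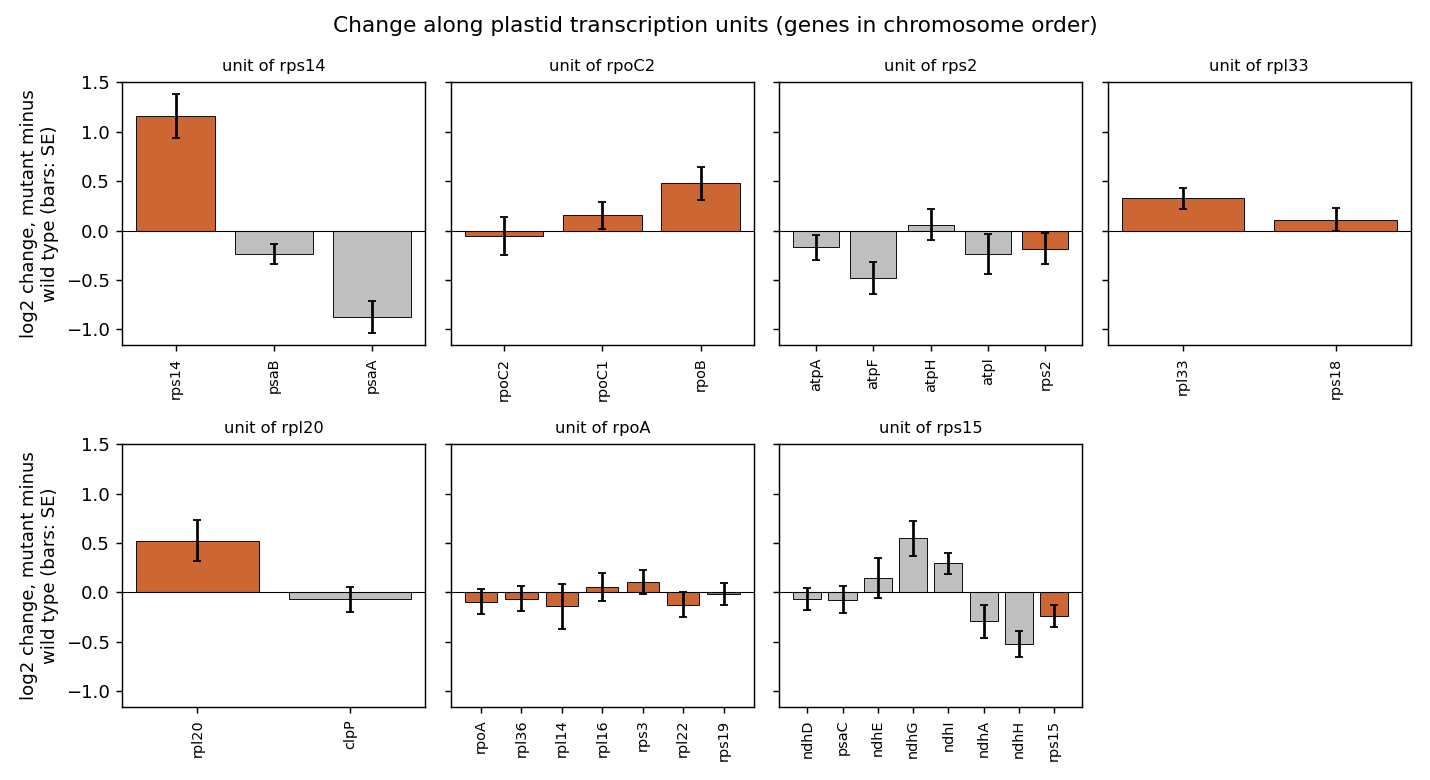
Log2 change, mutant minus wild type, of the measured genes of 7 plastid clusters, in the order of the genes on the chromosome, with standard errors from limma (n = 3 per group). Orange bars are ribosomal and polymerase genes and grey bars the other genes of the cluster. In the cluster of rps14 the changes run from 1.16 to -0.87, and in the long cluster that ends in rpoA they stay between -0.14 and 0.10.

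Other chloroplast genes moved in both directions. Of 47 tested genes for photosynthesis, the NDH complex and other functions, 2 rose and 2 fell. Of all tested probe sets, 8.17% were called higher and 10.4% lower. The median log2 change of the 47 genes was 0.06. The rises were those of petD (0.96 ± 0.172, limma adjusted p = 0.0021) and petN (0.92 ± 0.217, limma adjusted p = 0.011), both for subunits of the cytochrome b6f complex, and the falls were those of psaA and ndhH. Without mutant replicate 2 petN did not pass (0.74, limma adjusted p = 0.0557). Of 7 tested mitochondrial probe sets 2 rose, cox1 for a subunit of cytochrome oxidase (0.61 ± 0.162, limma adjusted p = 0.0194) and ccb452 for cytochrome assembly (0.52 ± 0.144, limma adjusted p = 0.0244). Neither passed without wild type replicate 1 (limma adjusted p = 0.0504 and 0.0778) or without mutant replicate 2 (limma adjusted p = 0.0861 and 0.0784), cox1 did not pass without wild type replicate 3 (limma adjusted p = 0.0766), and ccb452 did not pass without wild type replicate 2 (limma adjusted p = 0.0597) or mutant replicate 3 (limma adjusted p = 0.0688). A difference between these genes and the ribosomal and polymerase genes was not tested.

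The nuclear genes of the same machinery that could be measured did not pass. Of 39 listed nuclear genes for chloroplast ribosomal proteins, 9 had a probe set named here and 0 of 9 were called in limma, 0 higher and 0 lower. The largest changes in either direction were those of the large subunit gene AT3G54210 (0.27 ± 0.0996, limma adjusted p = 0.078) and the small subunit gene AT5G24490 (-0.22 ± 0.0948, limma adjusted p = 0.14), both with groups that did not overlap. The sigma factor and polymerase-associated lists had no probe set named here, and the phage-type polymerase gene AT5G15700 was too dim to test, with mean intensities of 94.2 in wild type and 113 in the mutant.

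The pattern of rps14 over the 6 arrays was most like that of AT1G48650 (Pearson r = 0.985), AT5G05480 (0.981), petN (0.974), AT3G26100 (0.974) and AT5G12350 (0.974), out of 7324 single-gene probe sets. The intensity of petN was 226, 307.5 and 420.7 in wild type and 461.9, 772.8 and 600.4 in the mutant, in the same order of arrays as rps14. Among the ribosomal and polymerase genes the closest to rps14 were rpl33 (0.918), rpl20 (0.829) and rpoB (0.825), and the least alike was rps15 (-0.421). These values are over 6 arrays that fall into the 2 groups, and they describe the samples without a test.

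Measures of RNA quality and of tissue are given beside these results. The 3' to 5' ratio of the actin control, a measure of how complete the labelled RNA is, was 2.55, 3.00 and 2.86 in wild type and 3.19, 3.56 and 3.45 in the mutant (exact permutation p = 0.1). It was higher in every mutant array, as rps14 was. The GAPDH control had a ratio of 1.13 ± 0.0577 in wild type and 1.13 ± 0.0836 in the mutant (SD, n = 3 each, exact permutation p = 1), and the ubiquitin control 1.45 ± 0.101 and 1.64 ± 0.227 (exact permutation p = 0.3). The one-cycle labelling named in the design text starts from poly(A) tails, which most intact plastid messengers lack.

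Of 12 listed nuclear genes of green tissue 3 had a probe set, all tested, and 1 rose, PRK, an enzyme of carbon fixation (0.43 ± 0.109, limma adjusted p = 0.0166). It did not pass without wild type replicate 1 (limma adjusted p = 0.0685), without mutant replicate 2 (limma adjusted p = 0.0661) or under quantile normalization (limma adjusted p = 0.0765). Their summed intensity was 49973.5 to 54653.7 in wild type and 59809.5 to 65995.9 in the mutant, without overlap. Of 12 listed root genes 4 had a probe set and 3 were tested, and 2 fell, AT4G26010 (-1.07 ± 0.253, limma adjusted p = 0.0112) and AT1G30870 (-1.03 ± 0.226, limma adjusted p = 0.00733). Their summed intensity was 13027 to 13897.5 in wild type and 12551.6 to 17258.4 in the mutant. Nearly all of this sum was PYK10, a beta-glucosidase, at 12618.1 to 13438.8 in wild type and 12387.1 to 17028 in the mutant (log2 change 0.20 ± 0.118, limma adjusted p = 0.274). The remaining root gene, EXPA7, was too dim to test, with mean intensities of 58.4 in wild type and 29.8 in the mutant. The part of RNA quality, tissue makeup and age in the differences of rps14, rpl33 and rpoB was not tested.

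**Figure D5:**
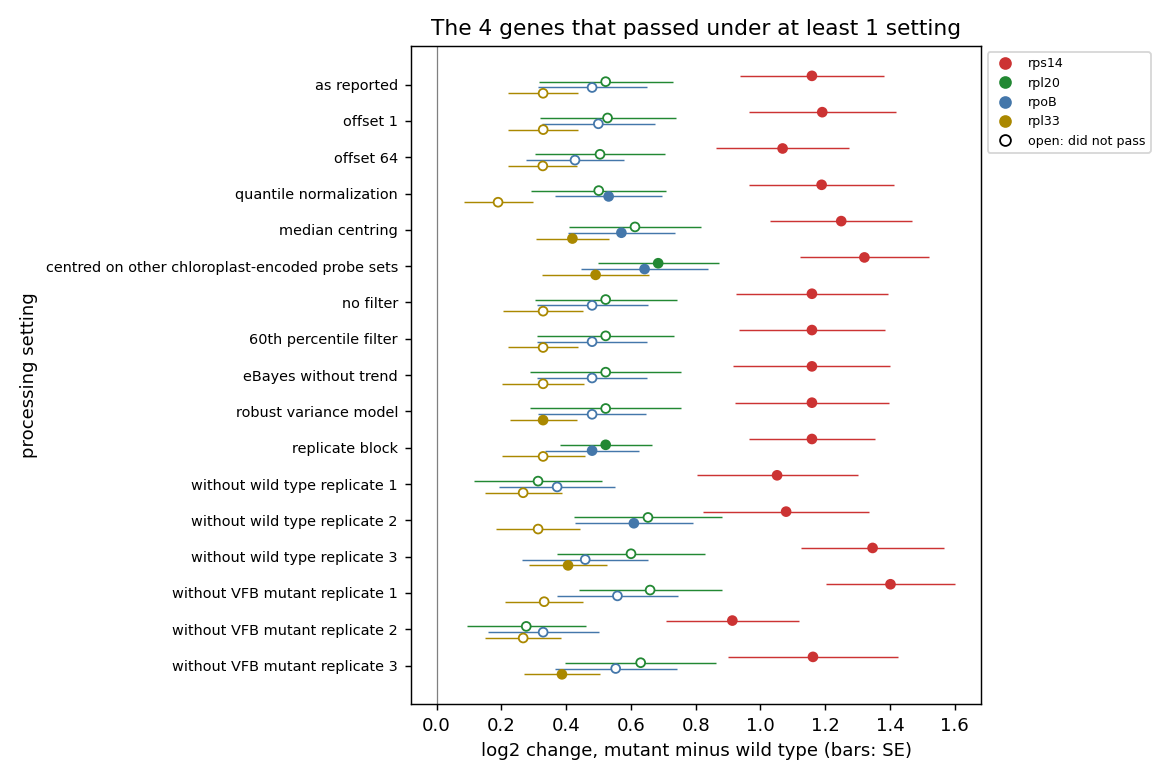
Log2 change of rps14, rpl20, rpoB and rpl33, mutant minus wild type, as reported and under 16 other settings, with standard errors. Filled points passed at an adjusted p below 0.05. The points of rps14 are filled throughout, between 0.91 and 1.40, and those of the other 3 genes are filled under some settings only.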

How the data were processed

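Per the submitters' processing notes the software was MAS5, with no version or settings given in the sources used here. The intensities the authors deposited had a trimmed mean of 500 on every array (2% removed at each end), so each array had been scaled as a whole. Medians were 184.6 to 204.2 over the 6 arrays.

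From these values log2(intensity + 16) was computed, 64 control probe sets were left out, and probe sets with a mean above the 40th percentile were tested, 13647 of 22746. The comparison, mutant minus wild type, used limma 3.58.1 (lmFit, eBayes with trend; R 4.3.3) with Benjamini-Hochberg adjustment. The fit was tested on simulated data, where it recovered 32% of changes of 1.5-fold, 80% of 2-fold and 100% of 4-fold (50 probe sets each). The share recovered in the real data may differ, since the simulation gave 161 calls and the real data 2541. Gene names came from the platform annotation, which paired 13513 probe sets with 1 gene, and loci from RefSeq. Detection calls were not used here. With 3 arrays per group, their number sets the precision.

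Every member is named. Values on all arrays are given for members called as deposited or under quantile normalization or median centring, for polymerase genes and for the brightest of each subunit, and were added for others after values were seen. Members and lists were chosen with earlier results of these data known. The pairwise ratios within clusters were added after the values were seen. Figures were drawn with matplotlib 3.10.9.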

Additional observations from a re-analysis of the deposited data

How the results depend on the processing

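The rise of rps14 passed under all 16 alternatives run, with log2 changes between 0.91 and 1.40, and no ribosomal or polymerase gene was called lower under any of them. The count of genes called higher, 1 as reported, was 2 under quantile normalization and with a robust variance model, 3 under median centring and at an adjusted p threshold of 0.1, and 4 after centring on the other chloroplast-encoded genes. It ran from 1 to 2 when 1 array was left out. With the replicate block 3 were called, rps14, rpl20 and rpoB, against 6.46% of all tested probe sets. Deviations of same-numbered arrays correlated at -0.196, 0.0157 and -0.167, and those of arrays with other numbers between -0.0377 and 0.194. So few values cannot decide whether replicate numbers pair the samples. The gene rpl33 passed without wild type replicate 3 (0.41) or mutant replicate 3 (0.39) and rpoB without wild type replicate 2 (0.61). The sign of the change differed from that reported in 3 genes under quantile normalization, 3 under median centring, 7 after centring on chloroplast genes and 1 to 5 without 1 array, none of them called. Over all probe sets, 474 were called lower after centring on chloroplast genes and 871 to 1298 without 1 array, against 1426. Median centring called 1556 higher and 960 lower, against 1115 and 1426, and quantile normalization 1164 and 1214. The median change of the small subunit genes was 0.21 after centring on chloroplast genes, and that of the polymerase genes ran from 0.00213 to 0.238 without 1 array. Centring on the level of chloroplast genes added 0.16 to every change, while the median change of those genes as deposited was 0.06. Among other chloroplast genes 6 were higher under median centring, 5 higher and 1 lower after centring on chloroplast genes, 4 lower under quantile normalization, and 1 to 4 higher and 1 to 3 lower without 1 array. Mitochondrial probe sets had 0 to 3 higher without 1 array. Nuclear chloroplast ribosomal genes had 1 lower under quantile normalization, 1 higher under median centring and 0 to 1 higher without 1 array. Green tissue genes had 0 higher under quantile normalization and without filter, 2 under median centring and 0 to 1 without 1 array. The cause of these differences was not tested.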
